A study of Homo sapiens with 6 samples.

Results

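The genes described here are the ZNF genes of human chromosome 19, which encode zinc finger proteins of the C2H2 type. They were chosen from the deposited gene table as the protein-coding genes on chromosome 19 whose name starts with ZNF and whose transcription factor family is given as zf-C2H2. This gave 239 of the 58735 genes in the table. The rule uses no expression value, but the group was chosen with earlier results of these data known. All libraries were made from T84 cells, a long-established line from a human colorectal carcinoma, and RNA was sequenced after removal of ribosomal RNA. The groups were shACSL4 (3 libraries), in which the labels give a knockdown of ACSL4 by a short hairpin RNA, and shControl (3 libraries), given as wild type with a control hairpin. ACSL4 encodes an enzyme that activates long polyunsaturated fatty acids. The series text speaks of a knockout, while the titles name hairpins, and the titles are followed here. No source used here gives the hairpin sequences, their number or a batch. Whether the 3 libraries of a group are separate cultures is not stated, so a p-value covers the spread among these libraries alone, and that spread may be technical.

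C2H2 zinc fingers are short folds held by a zinc ion, and a row of them reads a stretch of DNA base by base. Many of these proteins also carry a KRAB box, which binds the scaffold protein TRIM28. TRIM28 in turn brings the histone methyltransferase SETDB1, heterochromatin proteins of the CBX family and the NuRD deacetylase complex, and the bound DNA is silenced. Many targets of these proteins are transposable elements. The genes arose by tandem duplication and stand in rows on chromosome 19, so neighbours are often close relatives.

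The libraries held 15190317, 17189496 and 14740383 counts in shACSL4 and 17620630, 17010069 and 15119283 counts in shControl. ACSL4 itself stood at 10.3, 9.12 and 11.1 CPM (counts scaled to library size) in shACSL4 libraries, against 75.5, 72.2 and 72.0 CPM in shControl libraries, and the groups did not overlap. All 10 colon epithelium markers were detected, and 8 were called (80.0%, against 47.2% of all genes tested). Of these, 5 were higher, KRT20 the most (log2 fold change 0.88), and 3 were lower, EPCAM the most (-0.42). The summed level of the 10 markers was 8130 to 9380 CPM in shACSL4 and 7242 to 8486 CPM in shControl. Of the 6 blood markers, 1 of the 2 tested was called lower (LYZ, encoding lysozyme), CD3E had no count, and the summed level was 5.07 to 7.72 CPM in shACSL4 and 16.5 to 27.8 CPM in shControl. Of the 6 fibroblast markers 2 were tested and COL1A1 was lower (-1.49), with a summed level of 2.40 to 2.68 CPM in shACSL4 and 2.26 to 4.37 CPM in shControl. Of the 4 neuron markers 2 were tested, SYP was higher (1.00) and RBFOX3 lower (-1.17), with a summed level of 3.93 to 4.62 CPM in shACSL4 and 2.26 to 3.97 CPM in shControl. No endothelial marker had enough counts to be tested. The part of these markers in the results below was not tested. In such bulk libraries, fewer cells expressing a gene and less RNA per cell cannot be told apart.

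The neighbours ZNF546, ZNF780B and ZNF780A moved in opposite directions within 107 kb, and their RefSeq promoters (250 bases before to 50 after the start, GRCh38.p14) are shown so that they can be compared. They lie at chr19:39996810-39997109 on the plus strand for ZNF546, and on the minus strand at chr19:40056182-40056481 for ZNF780B and at chr19:40090894-40091193 for ZNF780A. The ZNF546 window lies inside the gene as counted, which starts at chr19:39984134. Which start is used in these cells was not tested. Capitals mark the letters CCGGAA or their reverse complement, a form of the site that ETS transcription factors bind. Other forms of that site were not searched for and are not marked. These promoters, and those of ZNF69, ZNF844 and ZNF136, were picked after their values were seen.
ZNF780B: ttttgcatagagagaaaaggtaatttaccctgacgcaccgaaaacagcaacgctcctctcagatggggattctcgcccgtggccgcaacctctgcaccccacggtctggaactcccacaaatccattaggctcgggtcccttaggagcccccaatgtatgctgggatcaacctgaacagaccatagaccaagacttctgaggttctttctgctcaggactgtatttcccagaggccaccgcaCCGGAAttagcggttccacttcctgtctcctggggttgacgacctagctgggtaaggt
ZNF780A: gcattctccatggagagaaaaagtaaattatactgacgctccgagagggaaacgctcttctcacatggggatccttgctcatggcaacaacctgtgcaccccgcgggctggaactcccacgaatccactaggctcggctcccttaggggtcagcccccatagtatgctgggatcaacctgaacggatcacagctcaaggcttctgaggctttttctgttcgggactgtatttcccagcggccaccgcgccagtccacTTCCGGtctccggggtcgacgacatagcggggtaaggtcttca
ZNF546: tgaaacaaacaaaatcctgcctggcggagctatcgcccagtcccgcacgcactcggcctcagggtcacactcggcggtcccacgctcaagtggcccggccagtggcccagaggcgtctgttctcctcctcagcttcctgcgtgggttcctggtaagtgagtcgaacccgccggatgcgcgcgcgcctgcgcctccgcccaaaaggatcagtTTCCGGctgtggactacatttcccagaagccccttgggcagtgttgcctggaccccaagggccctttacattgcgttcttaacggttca
Each of the 3 held 1 match, and 81.0% of the 300 bases of the ZNF780B promoter were identical to ZNF780A when aligned. ZNF546, on the opposite strand, shared less with them. Over the 6 promoters printed here, pairs other than this one and that of ZNF69 and ZNF844 were 51.3% to 56.3% identical.

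A second set from 1 row of the short arm, ZNF69, ZNF844 and ZNF136, is shown for the same reason: ZNF69 and ZNF844 had the largest rises among well counted members, and ZNF136, the next tested member after ZNF844, fell. Between ZNF69 and ZNF844 lie ZNF700 and ZNF433, which were tested and not called (0.05 and -0.40), and ZNF763 and ZNF878, which were not tested. The 3 printed promoters are on the plus strand, at chr19:11887532-11887831, chr19:12064481-12064780 and chr19:12162846-12163145.
ZNF69: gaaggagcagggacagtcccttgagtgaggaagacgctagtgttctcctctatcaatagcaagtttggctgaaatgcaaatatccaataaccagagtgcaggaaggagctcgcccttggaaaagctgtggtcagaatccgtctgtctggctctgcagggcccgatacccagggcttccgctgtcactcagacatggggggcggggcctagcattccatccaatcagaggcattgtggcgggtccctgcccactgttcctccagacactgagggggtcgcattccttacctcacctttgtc
ZNF844: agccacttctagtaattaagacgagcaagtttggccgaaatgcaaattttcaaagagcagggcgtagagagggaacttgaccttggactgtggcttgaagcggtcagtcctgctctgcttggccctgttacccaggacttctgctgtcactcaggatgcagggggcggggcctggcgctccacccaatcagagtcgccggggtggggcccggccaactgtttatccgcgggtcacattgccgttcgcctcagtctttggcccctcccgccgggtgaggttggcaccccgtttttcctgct
ZNF136: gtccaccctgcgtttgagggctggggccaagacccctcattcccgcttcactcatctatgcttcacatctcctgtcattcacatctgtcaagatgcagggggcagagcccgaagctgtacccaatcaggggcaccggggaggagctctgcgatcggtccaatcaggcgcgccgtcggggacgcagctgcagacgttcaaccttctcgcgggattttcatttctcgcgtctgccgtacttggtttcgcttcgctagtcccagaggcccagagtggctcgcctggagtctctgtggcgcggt
None of these 3 windows held the ETS letters, which says only that the letters are not in these bases. The ZNF69 and ZNF844 promoters were 66.7% identical.

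More chromosome 19 ZNF genes rose than fell in shACSL4 cells. Of the 239 members, 189 had enough counts to be tested, 81 were called higher, 13 were called lower and 95 were not called. A gene was called at an adjusted p under 0.05 in edgeR's quasi-likelihood test, with Benjamini-Hochberg adjustment over all 15694 genes tested. The members called made up 49.7% of those tested, against 47.2% of all genes tested, so the share called was near the background. The directions were not: 42.9% of the tested members were called higher, against 24.0% of all genes tested, and 6.9% were called lower, against 23.1% of all genes tested. The median log2 fold change of the tested members was 0.28 (interquartile range 0.04 to 0.67), against 0.01 over all genes tested, and 145 of the 189 had a positive value. The groups of 3 libraries did not overlap for 110 members (58.2%), 91 of them higher and 19 lower, against 55.1% of all genes tested (28.3% higher and 26.8% lower).

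The other coding genes of the chromosome leaned the same way, with a share of rises close to that of the members. Of 711 other protein-coding genes of chromosome 19 that were tested, 295 (41.5%) were called higher and 82 (11.5%) lower, with a median log2 fold change of 0.25. The share of all counts that fell on chromosome 19 was 6.06%, 6.23% and 6.37% in shACSL4 libraries and 5.05%, 5.22% and 5.00% in shControl libraries. When each fold change was taken relative to the median of those other coding genes of chromosome 19, 46 members were called higher and 33 lower, with a median of 0.03. The 46 were 24.3% of the tested members, near the share of those other coding genes that was called higher on that scale. Higher calls then made up 58.2% of the members' calls, against 24.2% of the calls over all genes. There 2047 genes were higher and 6415 lower, but the shift itself moved the median of all genes to -0.24. The share over all genes was thus lowered by the subtraction, and the members do not stand out by it. Without that shift the shares were 86.2% of the members' calls and 50.9% of all calls. Relative to the running median of 51 neighbouring tested genes, 44 members (23.3%) were called higher and 29 lower, with a median of 0.06. On that scale 21.9% of all tested genes were called higher, so the members' share was near the background. Inside the rows the members are themselves among the genes that set the running median, and both scales fix the centre by subtraction, so the balance of calls on them is a description only.

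Zinc finger genes elsewhere leaned the same way, by less. Of 361 zf-C2H2 genes on other chromosomes, 282 were tested, 96 (34.0%) were called higher and 41 (14.5%) lower, with a median of 0.16. With ZNF names alone, 64 of 180 tested genes (35.6%) were called higher and 23 (12.8%) lower, with a median of 0.19. Coding genes of other chromosomes outside the family had 24.4% called higher and 27.4% lower, with a median of -0.02. By chromosome, their median was highest on chromosome 10, at 1.13 over 13 tested genes with 8 higher and none lower, where the other coding genes had a median of 0.28 and 46.9% higher. It was lowest on chromosome 18, at -0.30 over 9 tested genes with 2 higher and 4 lower, where other coding genes had a median of -0.17 and 7.9% higher. At both ends the other coding genes of the chromosome leaned the same way, but this did not hold on every chromosome. On chromosome 8 the zf-C2H2 median was 0.68, with 11 of 18 tested genes higher, where other coding genes had a median of 0.01. On chromosome 20 the zf-C2H2 median was 0.0, where other coding genes had 0.19. These groups of genes were set side by side as a description, with no test between them.

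**Figure D1:**
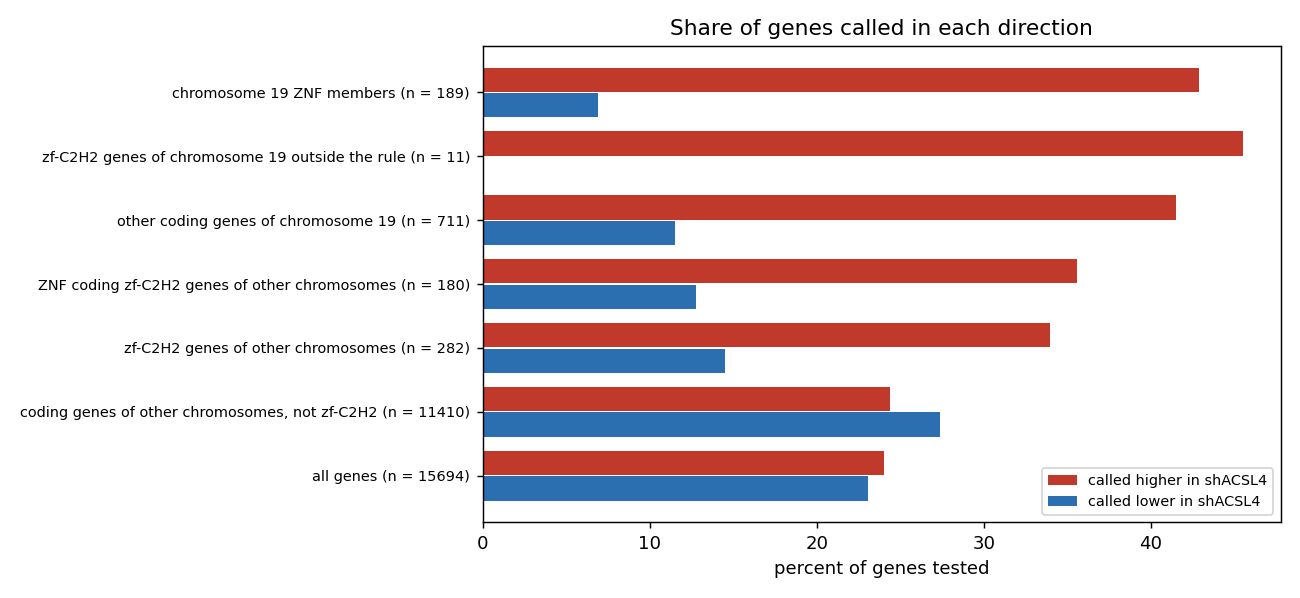
Share of tested genes called higher (red) and lower (blue) in shACSL4, in percent, for the members and for other groups of genes, with the number tested beside each name. The members (42.9% higher, 6.9% lower) resemble the other coding genes of chromosome 19 (41.5% higher, 11.5% lower) more than the coding genes of other chromosomes outside the family (24.4% higher, 27.4% lower).

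Most members were expressed at low levels, and their summed level was higher in shACSL4. Summed over all members the level was 3269, 3258 and 3112 CPM in shACSL4 libraries, against 2803, 2879 and 2832 CPM in shControl libraries, and the groups did not overlap. Per length, the median member level in the authors' FPKM was 1.59 in shACSL4 and 1.17 in shControl, and 127 members were above 1 FPKM in shControl while 6 were above 10 FPKM. The tested members had a median of 152.0 counts per library, from 9.7 to 2787.2. That median was 155.5 for the members called higher, 369.5 for those called lower and 151.2 for those not called. Among members with 50 to 500 mean counts, a range picked after the values were seen, 44.9% were called higher and 6.6% lower, against 30.2% and 20.7% of all genes in that range. The other coding genes of chromosome 19 in that range had 42.7% called higher, near the members' share, and 13.7% lower.

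The most abundant member per length was ZNF146, which encodes a protein made of zinc fingers with no KRAB box, at 37.6 ± 1.34 FPKM in shACSL4 and 30.1 ± 1.35 FPKM in shControl (SD, n = 3 each). ZNF121 followed with 18.6 ± 1.90 FPKM in shACSL4 and 28.8 ± 0.890 FPKM in shControl. ZNF787 had 23.4 ± 1.15 FPKM in shACSL4 and 22.6 ± 1.77 FPKM in shControl. The order of the leading pair in shControl lay within about their spread, whereas in shACSL4 the order was ZNF146, ZNF787, ZNF524 and ZNF121, of which ZNF787 and ZNF524 lay within their spread. ZNF524 stood at 21.8 ± 1.82 FPKM in shACSL4 and 13.1 ± 1.15 FPKM in shControl, and ZNF581 at 17.3 ± 0.710 FPKM in shACSL4 and 14.8 ± 0.441 FPKM in shControl. ZNF587, one of a pair of close relatives, had 15.2 ± 0.514 FPKM in shACSL4 and 14.9 ± 1.24 FPKM in shControl. ZNF787, ZNF524 and ZNF581 are named for their level alone.

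The other 50 members were not tested, and they were not spread evenly. Their median of mean counts was 0.5 and their highest was 8.0, and 9 had no count in any library (ZNF177, ZNF625, ZNF626, ZNF729, ZNF98, ZNF492, ZNF728, ZNF471 and ZNF418). Only 13.2% of the 50-base words of ZNF177 and 18.6% of those of ZNF625 occur in no other gene. Genes on the same strand overlap 90.8% and 83.3% of their exon bases. For ZNF98 and ZNF492 59.0% and 66.1% of the words are unique, and for the others named over 90%. Whether reads lost to other genes lie behind such zeros was not tested. Of the 50 untested members, 26 lie among the 81 members of the short arm and 24 among the 158 members of the long arm. The longest unbroken stretch was 10 members from ZNF43 to ZNF730 (chr19:21804949-23147219), each with a mean of at most 1.0 count. It lay inside the row in which the largest share of tested members rose. Members chosen for naming whatever their values were also at this level. ZNF331, an imprinted gene, had 4, 1 and 0 counts in shACSL4 libraries and 1, 4 and 0 counts in shControl libraries. ZNF382, encoding a KRAB repressor, had 1, 0 and 2 counts in shACSL4 and none in shControl, and ZNF536, a neural zinc finger gene, had 3, 0 and 0 counts in shACSL4 and none in shControl.

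Ordered by start, the members fell into 9 rows of at least 5 genes with no gap over 1 Mb, which held 226 members, and 13 lay scattered. On the short arm 55 members were tested, 26 were called higher and 3 lower, with a median log2 fold change of 0.39, against 0.26 for the other coding genes of that arm. On the long arm 134 were tested, 55 were called higher and 10 lower, with a median of 0.24, against 0.22 for the other coding genes of that arm. The rows are named here by their first and last member.

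The row with the largest share of rises was ZNF101 to ZNF254 (chr19:19668796-24129961), next to the centromere. Of its 20 tested members 13 were called higher and none lower, the median was 0.51, and 19 had a positive value. Here ZNF486 (chr19:20167228-20200490) had 10.2, 10.9 and 10.2 CPM in shACSL4 libraries, against 3.69, 5.15 and 4.91 CPM in shControl libraries. The groups did not overlap, and its log2 fold change was 1.19 with a standard error (SE) of 0.17 (adjusted p = 2.59e-05, edgeR). ZNF93, whose protein represses LINE-1 retrotransposons, had 9.23, 6.90 and 9.05 CPM in shACSL4 libraries, against 5.18, 4.90 and 5.04 CPM in shControl libraries. Each shACSL4 library was above each shControl library, with a log2 fold change of 0.73 (SE 0.18, adjusted p = 0.00253, edgeR). Relative to its 51 neighbouring genes, with their median taken as fixed, ZNF93 had a value of 0.27 and was not called. ZNF91, whose protein represses SVA elements, had 35.1, 34.9 and 38.02 CPM in shACSL4 libraries and 33.3, 35.6 and 35.0 CPM in shControl libraries. These values overlapped and ZNF91 did not pass the test (log2 fold change 0.06, SE 0.09, adjusted p = 0.642, edgeR). Relative to its 51 neighbours ZNF91 had a value of -0.30 and was called lower, but that call leaves out the error of the subtracted median.

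The row ZNF653 to ZNF791 (chr19:11483427-12640098), also on the short arm, had 18 tested members, 7 higher, 1 lower and a median of 0.42. ZNF69 (chr19:11887784-11914329) stood at 11.2, 10.7 and 10.9 CPM in shACSL4 libraries, against 3.45, 2.89 and 2.69 CPM in shControl libraries. All shACSL4 libraries were far above all shControl libraries, with a log2 fold change of 1.85 (SE 0.17, adjusted p = 2.59e-07, edgeR). ZNF844 (chr19:12064699-12081565) had 5.26, 4.56 and 6.52 CPM in shACSL4 libraries, against 1.13, 2.07 and 1.08 CPM in shControl libraries. The groups did not overlap (log2 fold change 1.92, SE 0.28, adjusted p = 3.26e-05, edgeR). The next tested member, ZNF136 (chr19:12163064-12189881), whose start lies 98.4 kb further on, had 6.35, 6.61 and 6.01 CPM in shACSL4 libraries, against 9.76, 10.9 and 8.88 CPM in shControl libraries. Every shACSL4 library was below every shControl library (log2 fold change -0.64, SE 0.15, adjusted p = 0.00286, edgeR).

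The remaining rows of the short arm held fewer rises. ZNF558 to ZNF846 (chr19:8806170-9793180) had 10 tested members, 3 higher, 1 lower and a median of 0.15. In it lies ZNF121, the second most abundant member per length (FPKM) in shControl. ZNF121 had 141, 148 and 122 CPM in shACSL4 libraries, against 214, 202 and 214 CPM in shControl libraries. The groups were well apart (log2 fold change -0.62, SE 0.09, adjusted p = 3.58e-05, edgeR). The next tested member, ZNF561, starts 44.3 kb away on the same strand and had 32.3, 33.2 and 31.6 CPM in shACSL4 libraries, against 19.6, 18.6 and 18.6 CPM in shControl libraries. It thus moved the other way, with a log2 fold change of 0.77 (SE 0.10, adjusted p = 9.76e-06, edgeR). ZNF554 to ZNF77 (chr19:2819874-2944971) had 4 tested members, with ZNF554 called higher (log2 fold change 0.87) and ZNF57 called lower (-0.59).

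On the long arm, the row ZNF575 to ZNF296 (chr19:43525497-45076588) had all of its 22 members tested, 11 higher and none lower, with a median of 0.45. The 20 other coding genes tested within it had 8 higher and 2 lower, with a median of 0.25. ZNF180 had 12.2, 13.3 and 13.2 CPM in shACSL4 libraries, against 5.00, 6.28 and 5.65 CPM in shControl libraries. The shACSL4 libraries were all above the shControl ones (log2 fold change 1.198, SE 0.15, adjusted p = 6.45e-06, edgeR). ZNF224, encoding a KRAB repressor of the aldolase A gene, had 11.8, 13.1 and 15.1 CPM in shACSL4 libraries and 10.8, 9.85 and 11.2 CPM in shControl libraries, and did not pass the test (adjusted p = 0.0584, edgeR). The largest log2 fold change of any called member, 2.04 (SE 0.33, adjusted p = 8.21e-05, edgeR), was that of ZNF575, which rested on 48, 71 and 48 counts in shACSL4 and 16, 8 and 15 counts in shControl. It was under the 50 mean counts asked of named genes and is given for its size alone.

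The row ZNF565 to ZNF573 (chr19:36182060-37817300) had 18 tested members, 7 higher, 2 lower and a median of 0.27. It held the one called member that fell by over 1 on the log2 scale, ZNF850 (chr19:36714383-36772825), against 23 that rose by over 1. Over all 15694 genes tested, 790 called genes fell and 1076 rose by that much. ZNF850 had 14.5, 14.1 and 16.004 CPM in shACSL4 libraries, against 33.1, 31.4 and 29.4 CPM in shControl libraries. Every shACSL4 library was far below every shControl library (log2 fold change -1.07, SE 0.11, adjusted p = 6.8e-07, edgeR). The next tested member, ZNF790, lay 103.0 kb away by its start and was called higher at 0.66. ZNF146 in the same row had 164, 157 and 153 CPM in shACSL4 libraries, against 129, 128 and 120 CPM in shControl libraries, with no overlap (log2 fold change 0.33, SE 0.08, adjusted p = 0.00298, edgeR). Relative to the other coding genes of chromosome 19, with their median taken as fixed, ZNF146 had a value of 0.09 and was not called. The short row ZNF302 to ZNF792 (chr19:34677639-34964049) had 2 of 5 members higher and none lower, and its largest rise was ZNF30 with a log2 fold change of 1.16.

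The scattered trio whose promoters are shown above had one fall beside 2 rises. ZNF780B (chr19:40028260-40056209) had 39.0, 36.6 and 42.7 CPM in shACSL4 libraries, against 13.9, 12.9 and 11.4 CPM in shControl libraries. The groups lay far apart (log2 fold change 1.63, SE 0.11, adjusted p = 7.73e-09, edgeR). ZNF780A, its close relative (chr19:40069152-40090938), had 23.9, 22.4 and 22.8 CPM in shACSL4 libraries, against 13.6, 11.6 and 12.7 CPM in shControl libraries, with a log2 fold change of 0.87 (SE 0.12, adjusted p = 1.37e-05, edgeR). ZNF546 (chr19:39984134-40021041) had 1.92, 2.34 and 2.91 CPM in shACSL4 libraries, against 4.05, 3.39 and 4.24 CPM in shControl libraries. It was lower in every shACSL4 library than in any shControl library (log2 fold change -0.70, SE 0.25, adjusted p = 0.0271, edgeR), but the call rested on few counts. It was lost without shACSL4 replicate 1 or 2 (adjusted p = 0.108 and 0.075), without shControl replicate 1 or 3 (0.0708 and 0.0793), and with library size alone (0.0731), all by edgeR.

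The row ZNF175 to ZNF331 (chr19:51571298-53580269) held the most falls, with 31 tested members, 12 higher, 5 lower and a median of 0.21. ZNF480 had 48.6, 46.9 and 38.6 CPM in shACSL4 libraries, against 18.98, 17.7 and 18.6 CPM in shControl libraries. No shACSL4 library overlapped shControl (log2 fold change 1.28, SE 0.11, adjusted p = 8.26e-08, edgeR). ZNF808, whose protein binds MER11 elements and is needed for pancreas development, had 24.0, 21.4 and 18.8 CPM in shACSL4 libraries, against 27.5, 25.7 and 33.6 CPM in shControl libraries. ZNF841 had 29.2, 23.8 and 23.2 CPM in shACSL4 libraries, against 34.0, 30.7 and 36.9 CPM in shControl libraries. Both were lower in all shACSL4 libraries than in any shControl library, with log2 fold changes of -0.43 and -0.42 (adjusted p = 0.00891 and 0.00622, edgeR), though ZNF808 was not called without shControl replicate 3 (adjusted p = 0.0517, edgeR). ZNF528 had a log2 fold change of -0.56 (SE 0.20, adjusted p = 0.0328, edgeR). It was not called without shACSL4 replicate 1 or 3 or without shControl replicate 3 (adjusted p = 0.0796, 0.135 and 0.145, edgeR). ZNF175, a KRAB gene at the row's start, rose with a log2 fold change of 0.97 (adjusted p = 0.0133, edgeR), a call lost without shACSL4 replicate 3 or shControl replicate 2 (0.0803 and 0.0527). ZNF350, encoding a repressor that binds BRCA1, had a value of 0.38 and did not pass (adjusted p = 0.07, edgeR). Nor did ZNF649 (0.21, adjusted p = 0.471, edgeR).

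The row at the end of the long arm, ZNF628 to ZNF446 (chr19:55476332-58481230), was the largest, with 58 members, 50 of them tested, 20 higher, 2 lower and a median of 0.24. The 12 other coding genes tested within it had 4 higher and 3 lower, with a median of 0.07. ZNF837 and ZNF671, the second of which is described as a tumour suppressor gene, rose with log2 fold changes of 1.19 (SE 0.22) and 1.14 (SE 0.32), at adjusted p = 0.000331 and 0.00837 by edgeR. ZNF304, whose protein recruits TRIM28 to silenced promoters in colorectal cancer cells, had 10.1, 8.66 and 8.29 CPM in shACSL4 libraries, against 5.35, 6.21 and 5.38 CPM in shControl libraries. Every shACSL4 library was above every shControl library (log2 fold change 0.67, SE 0.16, adjusted p = 0.00294, edgeR). ZNF134 had 19.3, 19.4 and 21.3 CPM in shACSL4 libraries, against 24.5, 26.5 and 27.3 CPM in shControl libraries. It was thus lower in all shACSL4 libraries (log2 fold change -0.38, SE 0.11, adjusted p = 0.00714, edgeR). ZNF211, whose start lies 16.2 kb from it on the same strand, was called higher at 0.57.

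ZNF274, whose protein binds the 3′ ends of zinc finger genes themselves and brings SETDB1 there, lies in that last row. It had 56.2, 55.6 and 54.3 CPM in shACSL4 libraries, against 47.7, 46.0 and 47.5 CPM in shControl libraries. The groups did not overlap, but the log2 fold change was small (0.23, SE 0.08, adjusted p = 0.0287, edgeR). The call was lost without shACSL4 replicate 1 or 2 and without shControl replicate 1 or 3 (adjusted p = 0.0927, 0.0801, 0.0768 and 0.0702, edgeR), and the value was -0.02 relative to the other coding genes of chromosome 19. ZNF587 and ZNF417, close relatives whose proteins repress the endogenous retrovirus HERV-K, did not pass the test. ZNF587 had 116, 109 and 116 CPM in shACSL4 libraries and 101, 119 and 112 CPM in shControl libraries. ZNF417 had 14.2, 11.2 and 12.6 CPM in shACSL4 libraries and 14.3, 15.2 and 17.1 CPM in shControl libraries (adjusted p = 0.0809, edgeR). Reads of this pair cannot be assigned with certainty. Only 64.5% of the 50-base words of ZNF587 occur in no other gene on either strand. The gene that shares the most is ZNF814 (31.2% of the words), and 33.3% of the exon bases of ZNF587 are overlapped on the other strand. Words were matched on both strands, so both shares can come from the same bases. For ZNF417 62.3% of the words are unique, and ZNF587 shares the most (30.5%).

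**Figure D2:**
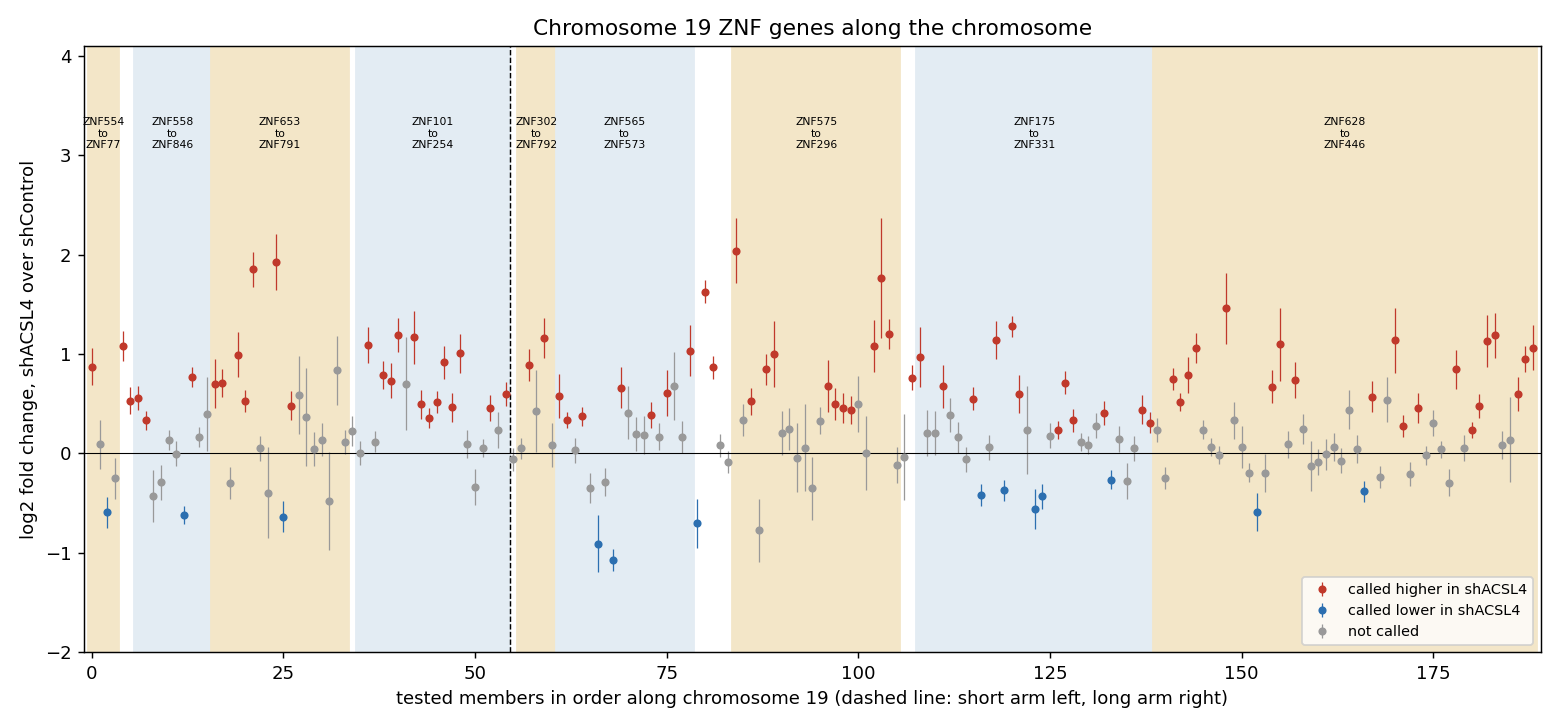
Log2 fold change, shACSL4 over shControl, of the 189 tested members in order along chromosome 19, with bars for the SE and shading for the 9 rows. Points called higher (81, red) lie on both arms and points called lower (13, blue) stand among them, next to one called higher in 10 pairs.

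Some neighbouring members moved in opposite directions. Of 173 pairs of tested members next to each other within a row or scattered group, both were called in the same direction in 36 and in opposite directions in 10. The 10 pairs were ZNF121 and ZNF561, ZNF844 and ZNF136, ZNF136 and ZNF44, ZNF850 and ZNF790, ZNF546 and ZNF780B, ZNF432 and ZNF841, ZNF836 and ZNF766, ZNF766 and ZNF480, ZNF816 and ZNF160, and ZNF134 and ZNF211. The closest was ZNF134 and ZNF211, and the next was ZNF766 and ZNF480, with starts 27.6 kb apart on the same strand and log2 fold changes of -0.37 and 1.28. With 42.9% of the tested members called higher and 6.9% lower, pairs of both kinds can arise in any order of the genes. The counts of 36 and 10 were not compared with such an order, so they are a description only.

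**Figure D3:**
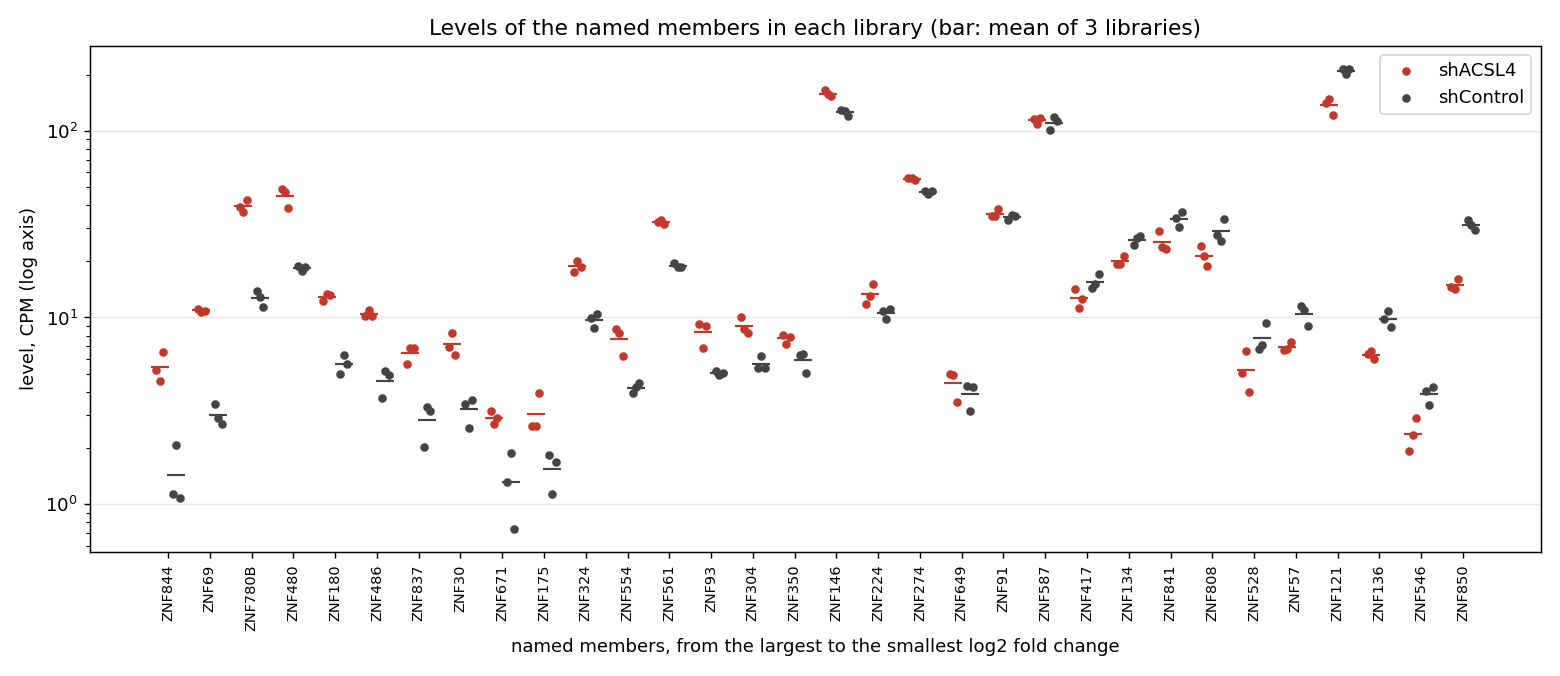
Level in each library (CPM, log axis) of the named members that were tested, shACSL4 in red and shControl in grey, ordered from the largest to the smallest log2 fold change, with a bar at each mean. ZNF844, ZNF69 and ZNF780B at the left have all 3 shACSL4 libraries well above shControl, ZNF91 and ZNF587 overlap, and ZNF850 at the right has all 3 shACSL4 libraries below shControl.

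The proteins' features did not part the members that rose from the others by much. Letters of the KRAB A box were found in 205 members, by translating the longest coding transcript of each gene and allowing up to 3 mismatches. Of the 161 tested members with the box 67 were called higher and 11 lower, with a median log2 fold change of 0.28. Of the 28 tested without it 14 were called higher and 2 lower, with a median of 0.34. The number of finger matches ran from 3 to 36 with a median of 12. By number of fingers, the share called higher was 44.0% for 3 to 9, 44.7% for 10 to 12, 39.6% for 13 to 15 and 43.2% for 16 to 36. The share called lower over the same bins was 4.0%, 4.3%, 8.3% and 11.4%, from 2 to 5 genes each, so no order is read from it.

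Related and overlapping genes limit how far a count belongs to its gene. The median member had 95.2% of its 50-base words in no other gene, and 65 members had under 90%. Words were matched on both strands, so overlap with an exon on the other strand also lowers this share. Members at or over 90% had 63 of 140 tested called higher and 12 lower, with a median of 0.33, and those under 90% had 18 of 49 higher and 1 lower, with a median of 0.24. Among the named members, ZNF324 (66.5% unique words, log2 fold change 0.95), ZNF224 (60.2%) and ZNF808 (77.4%) belong to the less certain ones. Exons of 76 members overlapped exons on the other strand, and no source used here says whether counting used strand. Of the 60 such members tested 30 were called higher and 1 lower (median 0.38), and of the 129 without such overlap 51 were called higher and 12 lower (median 0.24).

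The promoters of the members were searched for short sets of letters that transcription factors are known to bind. Of the 239 members, 209 had a RefSeq promoter, and for a gene with several listed starts the first was used. Both strands were searched for 8 sets of letters. The ETS letters CCGGAA occurred in 56.9% of the member promoters, against 22.9% of 15843 coding promoters and 21.9% of the 976 other coding promoters of chromosome 19. They were in 53.5% of the 71 promoters of members called higher, 84.6% of the 13 of members called lower, 57.1% of the 84 of those not called and 53.7% of the 41 of those not tested. The value for the 13 depended on the start: with the last listed start it was 61.5%, against 53.1% of all member promoters and 22.3% of coding promoters. A match is a description of the letters and not a bound site.

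A form of the site of the factor ZNF143, the letters ACTACA and TTCCC with 1 base between them, was in 25 of the 209 member promoters and in 1.3% of the coding promoters. It was in 15.5% of the promoters of members called higher, 2 of the 13 of those called lower, 10.7% of those not called and 7.3% of those not tested. These letters were added to the search after printed promoters had been read, so the difference is not independent of that choice. GGGCGG, the GC box bound by SP1, was in 67.9% of member promoters, against 58.5% of coding promoters and 65.9% of the other coding promoters of chromosome 19. GCCATNTT, part of the YY1 site, was in 14.4% against 7.9% of coding promoters and 9.5% of the others of chromosome 19. TATAAA, the TATA box, was in 1.9% against 9.6% and 8.0%. The other letters searched were GCGCATGC (NRF1), in 4.3% of member promoters and 4.3% of coding promoters, CACGTG (E-box), in 4.3% against 8.9%, and TGACGTCA (CRE), in 3.3% against 2.6%. Matches of ETS and YY1 letters overlapped in 3 member promoters, ETS and SP1 in 2, and YY1 and SP1 in 2. The median member promoter had 20 CG pairs and 59.7% G and C, against 22 pairs and 62.7% in coding promoters.

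**Figure D4:**
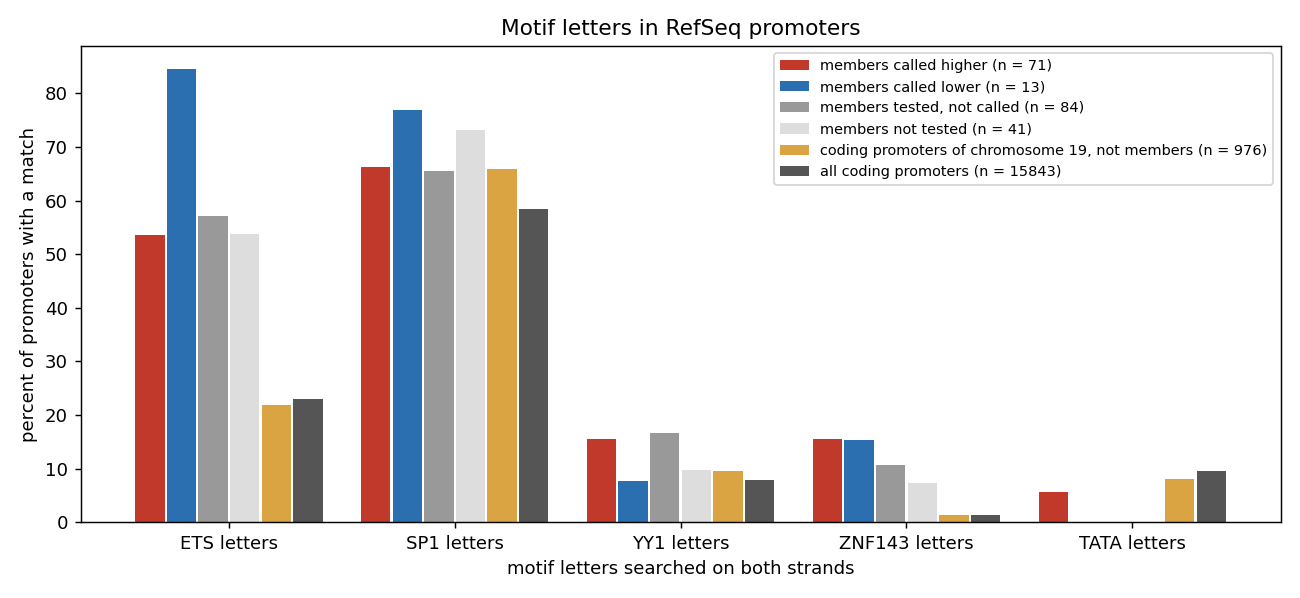
Percent of promoters with a match to each of 5 sets of letters, for members called higher, called lower, not called and not tested, other coding promoters of chromosome 19, and all coding promoters. ETS letters are above 50% in each group of members and at 21.9% and 22.9% in the other coding promoters.

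Genes whose proteins act with KRAB zinc fingers moved in both directions. All 44 genes of a list of such cofactors were tested, 12 were called higher and 12 lower (54.5% called, against 47.2% of all genes tested), and the median log2 fold change was -0.02. Without shACSL4 replicate 2, 7 were called in each direction. TRIM28, the scaffold that the KRAB box binds, had 602, 592 and 565 CPM in shACSL4 libraries and 593, 653 and 535 CPM in shControl libraries. These overlapped (log2 fold change -0.02, SE 0.09, adjusted p = 0.895, edgeR). SETDB1, the histone methyltransferase, had 48.2, 45.7 and 47.3 CPM in shACSL4 libraries and 40.0, 41.1 and 42.8 CPM in shControl libraries. It did not pass the test, though the libraries did not overlap (log2 fold change 0.19, SE 0.09, adjusted p = 0.0836, edgeR).

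The cofactors called higher with the smallest adjusted p were MBD3, UHRF1 and MORC2. MBD3, a subunit of the NuRD complex encoded on chromosome 19, had 124, 115 and 113 CPM in shACSL4 libraries, against 57.9, 63.8 and 46.6 CPM in shControl libraries, well apart (log2 fold change 1.06, SE 0.10, adjusted p = 4.59e-07, edgeR). UHRF1, which guides DNA methylation after replication and also lies on chromosome 19, had a log2 fold change of 0.62 (adjusted p = 2.66e-05, edgeR). MORC2, an ATPase that works with the HUSH silencing complex, had 0.54 (adjusted p = 0.000123, edgeR). Those called lower with the smallest adjusted p were SUMO2, RBBP4 and CBX3. SUMO2, a small modifier joined to TRIM28 among many proteins, had 104, 94.0 and 117 CPM in shACSL4 libraries, against 188, 198 and 182 CPM in shControl libraries. The groups did not overlap (log2 fold change -0.85, SE 0.09, adjusted p = 1.59e-06, edgeR). RBBP4, a histone binding subunit of NuRD, and CBX3, a heterochromatin protein, had -0.52 and -0.59 (adjusted p = 6.16e-05 and 7.71e-05, edgeR). CBX5, another heterochromatin protein, had 0.27 (adjusted p = 0.0357, edgeR), a call lost without shACSL4 replicate 1 or 2 and without shControl replicate 1 or 2 (adjusted p = 0.167, 0.1, 0.0806 and 0.0976). Several of these genes, SUMO2 and CBX3 among them, have processed pseudogenes that can take part of their reads.

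**Figure D5:**
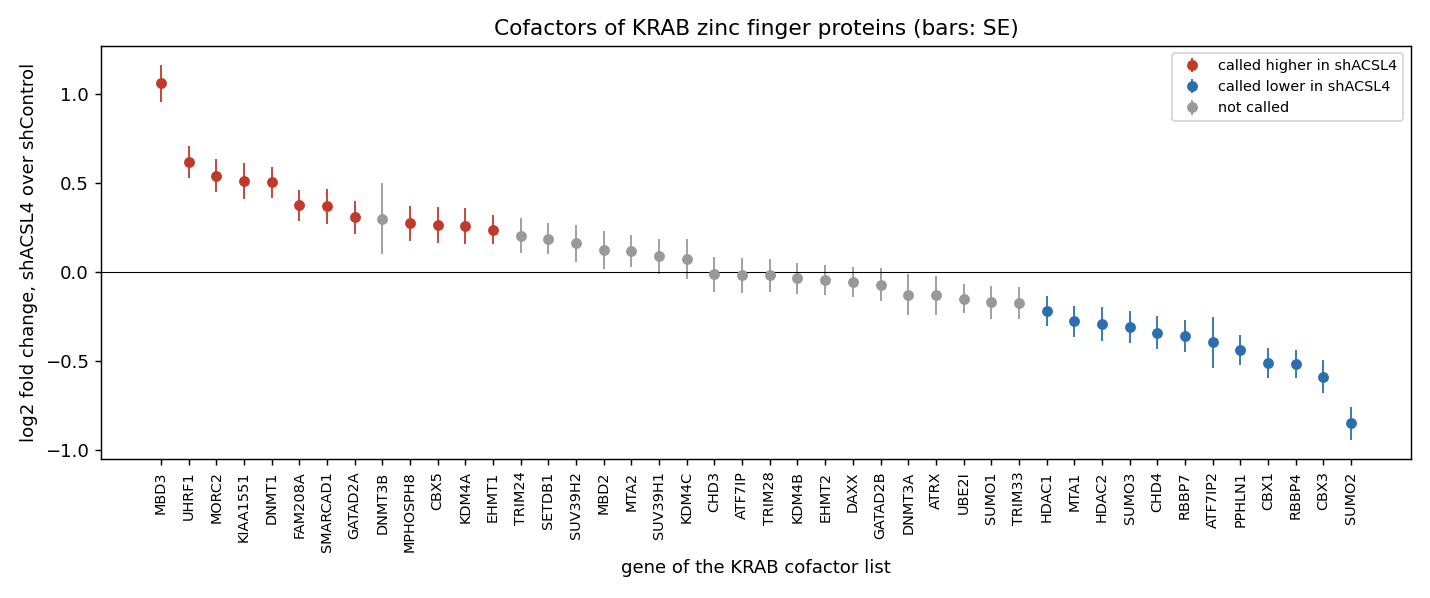
Log2 fold change, shACSL4 over shControl, of the 44 genes of the cofactor list from the largest to the smallest, with bars for the SE. The 12 called higher (red, led by MBD3 at 1.06) and the 12 called lower (blue, down to SUMO2 at -0.85) stand on either side of 20 that were not called, TRIM28 and SETDB1 among them.

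In the authors' deposited table, 74 members had an adjusted p under 0.05, 63 higher and 11 lower, and 73 of them were also called here. The exception, ZNF682, did not pass the filter on counts here and is named after its values were seen. It had 16, 7 and 12 counts in shACSL4 libraries and none in any shControl library. Of the 81 members called higher here 54 stayed called without each library in turn, and of the 13 called lower 7 did. The count of members called lower was 8 without shControl replicate 3, while the count called higher lay between 64 and 75 over the 6 omissions.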

How the data were processed

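RNA was sequenced in 6 libraries of T84 cells, 3 shACSL4 and 3 shControl. CASAVA, HISAT2 and GRCh38 (hg38) are named in the submitters' processing notes. No source used here names the counting tool or says whether strand was used. The authors deposited raw read counts per gene and FPKM per library, per the file headers, with group mean signal values, log2 fold changes and p-values of their own comparison. The control columns carry the prefix NC and were taken as shControl by number.

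Genes that passed filterByExpr on the counts were scaled by TMM and compared with edgeR 4.0.16 (R 4.3.3) by the quasi-likelihood test, with Benjamini-Hochberg adjustment over all 15694 genes tested and a threshold of 0.05. CPM values use the scaled library sizes. The depth, 14740383 to 17620630 counts per library, leaves members of few counts with wide errors. Positions and exons are those of GENCODE release 29. KRAB and finger matches came from translated GENCODE coding sequences, where RefSeq proteins had been planned. The arms were parted at 26 Mb. Scripts were tested on simulated data.

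Members and lists were chosen with earlier results of these data known. Named members are, among called ones with at least 50 mean counts and no overlap, the 8 that rose and 8 that fell the most, the called member of smallest adjusted p per row and direction, and 16 genes named whatever their values. The bins of fingers, the limit of 90% unique words and the promoter starts were set after values were seen, and a further motif, a HIF site, was searched at first and then dropped. Alternatives were DESeq2 1.42.0, limma 3.58.1 (voom, and a trend fit of log2(FPKM + 1)), other scalings and filters, and coding genes alone. Others were a replicate block, a fold of 1.2, neighbour scales and leaving out each library. For the neighbour scales, a median was subtracted from the edgeR log2 fold change and taken as fixed. The p-values on those scales came from a t-test with the SE of the edgeR fit.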

Additional observations from a re-analysis of the deposited data

How the results depend on the processing

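The count of members called higher stayed within 1.5 times of 81 in every setting run apart from the neighbour scales, where it was 44 (51 neighbouring genes) and 46 (other coding genes of chromosome 19). The count called lower, 13, was 7 with library size alone, 5 against a fold of 1.2, and 29 and 33 on those scales. Leaving out each library in turn gave 64 to 75 higher and 8 to 16 lower.

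The median log2 fold change of the tested members, 0.28, was 0.4 with library size alone, which also moved the median of all genes to 0.13 and the share of higher calls among all calls to 65.6%, against 50.9%. It was 0.32 with no filter, 0.25 with at least 50 mean counts, 0.15 on log2(FPKM + 1), 0.06 relative to 51 neighbouring genes and 0.03 relative to the other coding genes of chromosome 19. It lay between 0.27 and 0.31 without each library.

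Of the cofactors, 5 were higher and 5 lower against a fold of 1.2, 6 were lower with library size alone, and 5 were higher and 24 lower relative to the other coding genes of chromosome 19. On that last scale the subtraction moved the median of all genes to -0.24, with 2047 genes higher and 6415 lower. The excess of lower calls there is thus not specific to the cofactors. Leaving out each library gave 7 to 13 higher and 7 to 12 lower.

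Some small values changed sign. On the neighbour scales this followed from the subtracted median, and in the other settings the cause was not tested. Relative to 51 neighbouring genes the values were -0.3 for ZNF91, -0.03 for ZNF649 and -0.1 for ZNF587. Relative to the other coding genes of chromosome 19 they were -0.02 for ZNF274, -0.19 for ZNF91, -0.04 for ZNF649, -0.21 for ZNF587 and -0.06 for SETDB1. ZNF587 was at -0.03 without shControl replicate 1 and up to 0.09 without another library. TRIM28 was at 0.1 with library size alone, 0.01 without shACSL4 replicate 3 and 0.05 without shControl replicate 2. Over all named genes and settings, 694 values kept their direction and side of the threshold, 40 lost the call, 8 gained it and 12 changed sign. With library size alone ZNF546, ZNF528, ZNF808 and ZNF134 were not called.

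Same-numbered libraries did not deviate together (correlations 0.0623, -0.00128 and 0.00753), and shACSL4 replicates 2 and 3 each correlated better with another number. All correlations between the groups were small, from -0.087 to 0.0703. Whether same-numbered libraries share a culture or a batch cannot be told from them, and the main fit did not pair them. With the replicate number as a block 80 members were higher and 13 lower. DESeq2 gave 76 higher and 13 lower, and limma-voom 81 and 13. The share of ETS letters over all coding promoters was 26.6% with a match at any listed start, an alternative chosen after seeing the data. Low depth limits members under 50 mean counts most: 11 of 31 tested were called higher and 1 lower.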
